A study of Mus musculus with 35 samples.

Results

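The genes of the proteasome were followed in mouse liver through regeneration and with age. Every gene whose symbol in the array's platform table starts with Psma, Psmb, Psmc, Psmd, Psme, Psmf or Psmg and a digit was taken, from probe sets that list that symbol alone, and the brightest probe set, by its mean over the 35 arrays, stood for each gene. This gave 49 of 18193 genes, measured by 103 probe sets. They comprise 3 immunoproteasome catalytic subunits (Psmb8, Psmb9, Psmb10), the 3 constitutive catalytic subunits they replace (Psmb5, Psmb6, Psmb7), 4 other beta and 7 alpha subunits of the 20S core, 6 ATPases and 11 non-ATPase subunits of the 19S cap, 7 assembly chaperones, the PA28 activator gene Psme1, 3 further activator or inhibitor genes (Psme3, Psme4, Psmf1) and 2 tissue-restricted core subunits (Psma8 and Psmb11). The symbol rule also took in 2 genes that are not subunits, Psmc3ip, which acts in meiotic recombination, and Psme3ip1, which binds the Psme3 product. Psme2, the partner of Psme1 in PA28, is not among the 49 because its only probe set lists a second symbol as well.

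The proteasome is the barrel-shaped protease that degrades proteins tagged with ubiquitin. Alpha subunits gate the barrel, a pair of beta rings carries the catalytic sites, and the 19S cap binds, unfolds and feeds in the substrate. In cells exposed to interferon, and constitutively in many leukocytes, the 3 catalytic subunits are replaced by the immunoproteasome subunits, and the PA28 ring can cap the barrel; these forms are known for cutting peptides for presentation on MHC class I. The liver holds hepatocytes together with resident macrophages (Kupffer cells) and other leukocytes, and all of them contribute to the RNA measured here.

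Livers came from male mice of the CB6F1 hybrid strain, 5 to 6 months old (young) or 25 to 27 months old (old). A different supplier provided each age, so age and supplier cannot be told apart. Groups were untreated livers (0 h, 3 arrays per age), livers at 24, 38 and 48 h after 70% partial hepatectomy (PH, surgical removal of most of the liver, 3 arrays per age and time), and livers at the same times after a sham operation in which the liver was handled but left whole, with avertin and isoflurane as anaesthetics in both operations (young 2, 1 and 2 arrays, old 2, 2 and 2). Nothing in the labels says whether replicates are separate animals, so p-values describe the spread between these samples, which may be technical. All changes are differences of log2 signal (first group minus second) ± the standard error of a limma model of 14 group means on 35 arrays. "Rose" and "fell" mean an adjusted p under 0.05 over all 18193 genes, with the Benjamini-Hochberg method per comparison. The spread of the lone young 38 h sham array is taken from the remaining groups. The number of arrays limits the precision. Where the arrays of 2 groups are said not to overlap, the share of all genes that do the same was not counted. Counts of members with an unadjusted p under 0.05 have no like share of all genes beside them and are descriptions only.

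The arrays had like overall signal, with medians from 7.18 to 7.30. The array labelled old PH 24 h replicate 1 and the one labelled old PH 38 h replicate 3 stood apart. Their median correlations with the arrays of their own group were 0.965 and 0.946, against 0.969 to 0.996 for the other arrays that have a replicate. Hepatocyte markers such as albumin were high throughout, and the mean shift of the 8 measured hepatocyte markers from young 0 h livers was -0.34 and -0.36 in these 2 arrays and between -0.13 and 0.03 in the other 33. The shift of 6 neutrophil markers was 1.67 and 1.72 in them and at most 1.22 elsewhere. Results that use them are given with and without them, and since every test pools the spread over all arrays, leaving them out also changes counts in groups that do not hold them. In bulk tissue, fewer cells of a type and less RNA per cell cannot be told apart, which applies to every result here.

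Promoters of 3 catalytic subunit genes are given first. The 250 bases before the annotated start are shown for Psmb8 and Psmb9, immunoproteasome genes that flank Tap1 in the MHC region, and for Psmb5, the constitutive counterpart of Psmb8, from RefSeq on GRCm38.p6 (41 of 49 members matched). They read chr17:34197945-34198194 on the plus strand for Psmb8, chr17:34187331-34187580 on the minus strand for Psmb9 and chr14:54617996-54618245 on the minus strand for Psmb5. Capitals mark matches to any of 3 motifs searched on both strands: the gamma-activated site TTCNNNGAA, the interferon-stimulated response element core (GAAA, any 2 bases, GAAA) and the antioxidant response element core TGACNNNGC.
Psmb8: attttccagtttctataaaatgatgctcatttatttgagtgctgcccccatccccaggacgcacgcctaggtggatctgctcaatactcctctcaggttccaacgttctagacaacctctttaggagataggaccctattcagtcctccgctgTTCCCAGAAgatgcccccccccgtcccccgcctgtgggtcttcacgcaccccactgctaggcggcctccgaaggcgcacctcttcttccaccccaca
Psmb9: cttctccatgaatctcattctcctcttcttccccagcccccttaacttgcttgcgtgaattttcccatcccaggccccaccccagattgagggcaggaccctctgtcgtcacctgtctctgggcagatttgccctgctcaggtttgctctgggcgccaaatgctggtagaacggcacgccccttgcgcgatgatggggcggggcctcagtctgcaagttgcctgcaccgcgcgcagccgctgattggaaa
Psmb5: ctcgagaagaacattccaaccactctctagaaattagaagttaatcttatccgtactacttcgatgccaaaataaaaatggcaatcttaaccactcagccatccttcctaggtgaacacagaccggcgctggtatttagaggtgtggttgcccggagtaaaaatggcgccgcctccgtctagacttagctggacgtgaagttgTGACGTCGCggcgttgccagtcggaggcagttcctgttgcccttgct
The Psmb8 window held 1 gamma-activated match 97 bases before the start. This motif was present in 8.13% of 27025 genes with a promoter window of this length and in 2 of the 41 members (4.88%). A gene with several promoters was counted if any of them held the motif. The Psmb5 window held 1 antioxidant response match 47 bases before the start, against 11.5% of all these genes and 5 of 41 members (12.2%). Psmb9 held none of the 3, which says only that these letters are not in this window. Of the other catalytic genes, Psmb6 held an antioxidant response match and Psmb10 held none of the 3 motifs. The interferon-stimulated core was in 3 of 41 members (7.32%), namely Psmb3, Psmd4 and Psmd9, and in 3.46% of all these genes. It was in 0 of 3 immunoproteasome genes and in 2 of 25 constitutive core and cap genes. The CCAAT box CCAAT was in 39.0% of members and 37.5% of all these genes.

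**Figure D1:**
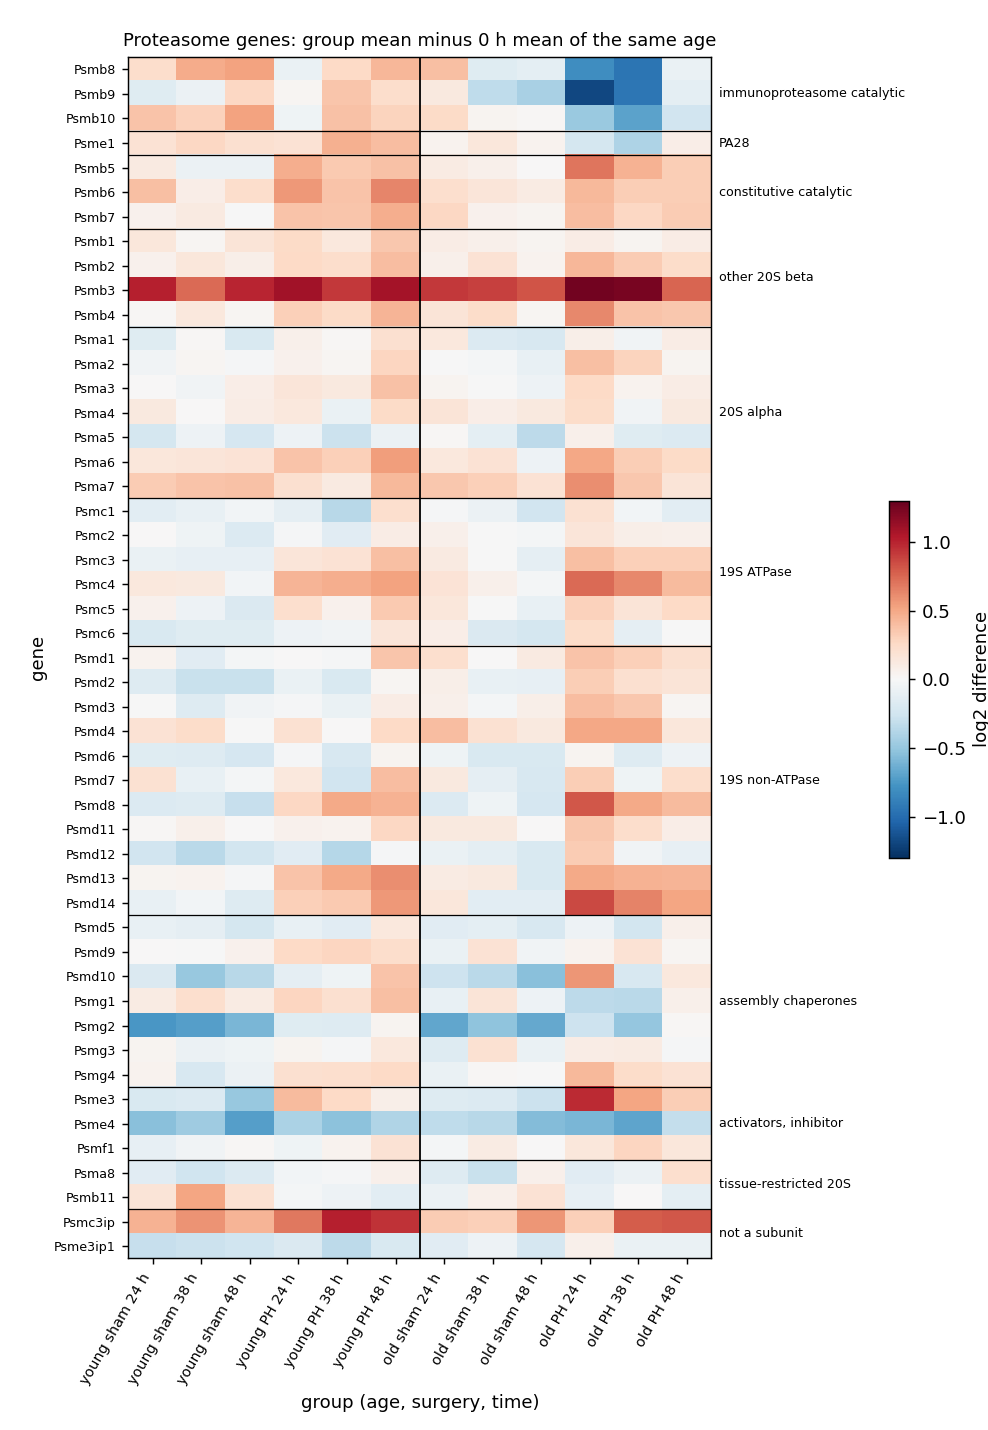
Mean log2 signal of each group minus the 0 h mean of the same age, for 49 proteasome genes ordered by role (rows) in 12 operated groups (columns); red is higher and blue lower than 0 h. Psmb3 is red in all 12 columns, Psmg2 is blue in all sham columns, and Psmb8, Psmb9 and Psmb10 are blue in old PH at 24 and 38 h.

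PH was compared with sham to ask which proteasome genes change when liver is removed, apart from the surgery itself. In young livers at 48 h, 19 of 49 genes rose and 1 fell, against 11.1% of all genes that rose, 7.3% that fell and 18.4% in either direction. The median change was 0.30 over the members and -0.05 over all genes. Among genes above percentile 75 of mean level, which hold 43 of the 49 members, 21.8% rose. The rises reached most structural parts: 7 of 14 constitutive core genes, 8 of 17 cap genes and 3 of 7 chaperones. At this time all 12 measured mitosis genes rose, with a median change of 4.11.

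Among the catalytic subunits in young livers at 48 h, the constitutive genes rose and the immunoproteasome genes did not pass the test. Psmb5 carries the chymotrypsin-like site, and its PH arrays read 12.53, 12.44 and 12.36 against 11.963 and 11.998 in sham. Its groups did not overlap and it rose by 0.46 ± 0.14 (adjusted p = 0.0202). Psmb6, the caspase-like subunit, read 11.99, 11.94 and 12.02 against 11.56 and 11.58 and rose by 0.41 ± 0.09 (adjusted p = 0.00164). Psmb7, the trypsin-like subunit, read 13.26, 13.06 and 13.19 against 12.59 and 12.81 and rose by 0.47 ± 0.11 (adjusted p = 0.00387). In both genes each PH array lay above each sham array. The immunoproteasome differences were -0.09 ± 0.33 for Psmb8, -0.03 ± 0.50 for Psmb9 and -0.24 ± 0.33 for Psmb10. Psme1 differed by 0.19 ± 0.19. The immunoproteasome genes thus had larger standard errors than Psmb5, Psmb6 and Psmb7, and a difference that did not pass is not shown to be absent.

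**Figure D2:**
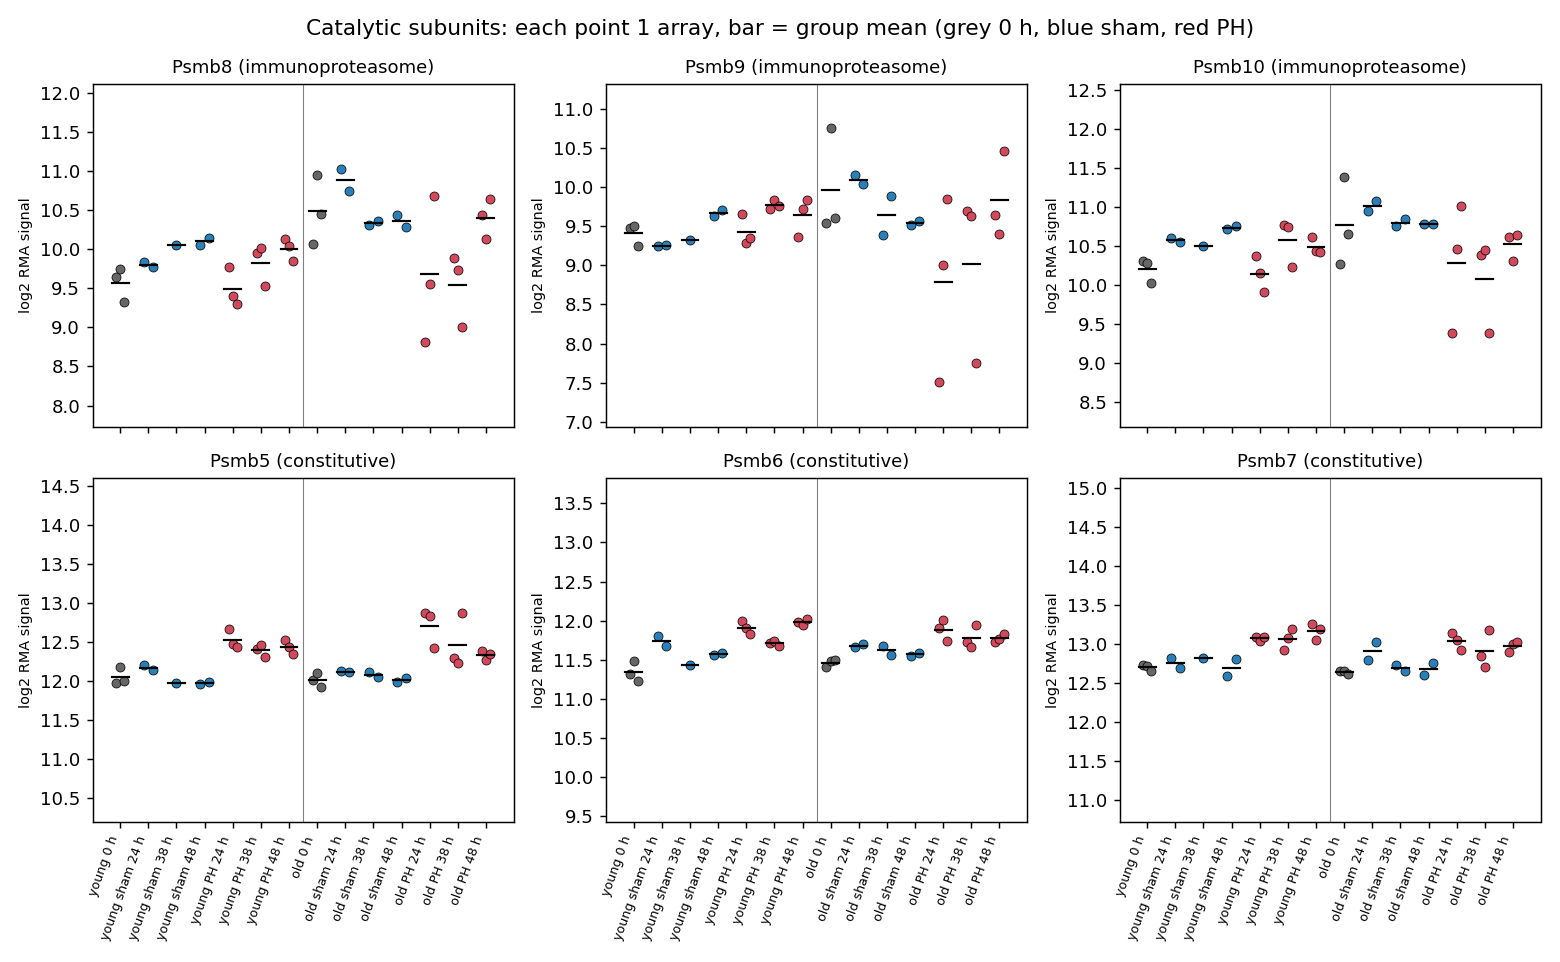
Log2 RMA signal of the 3 immunoproteasome (top) and 3 constitutive (bottom) catalytic subunits in each array (points) by group, with group means as bars; grey is 0 h, blue sham, red PH, and every panel spans the same log2 range. Psmb5, Psmb6 and Psmb7 sit higher in PH than in 0 h, and Psmb9 drops to 7.50 and 7.75 in 1 array each of old PH at 24 and 38 h.

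Of the other core genes in young livers at 48 h, 1 of 4 beta and 3 of 7 alpha genes rose, and of the cap genes 8 of 17, so that a larger number in each group did not pass. Psmb4, a structural beta subunit, rose by 0.41 ± 0.13, and the alpha-ring genes Psma1 (0.40 ± 0.10), Psma6 (0.37 ± 0.12) and Psma3 (0.30 ± 0.09) rose as well. Among the ATPases that unfold substrate, Psmc4 rose by 0.56 ± 0.17, Psmc5 by 0.53 ± 0.09 and Psmc3 by 0.49 ± 0.13. In the cap, Psmd8 rose by 0.75 ± 0.23. Psmd14, the deubiquitinase that removes ubiquitin chains from substrates, read 12.48, 12.14 and 12.19 after PH against 11.56 and 11.51 in sham and rose by 0.73 ± 0.19 (adjusted p = 0.0081). Its PH arrays all lay above its sham arrays. Psmd13 rose by 0.61 ± 0.11, with a second bright probe set at 0.53 ± 0.11 and the dimmest of its 4 at -1.10 ± 0.15, so its direction depends on the probe set. Among the chaperones, Psmd10 (gankyrin, which helps assemble the cap base) rose by 0.73 ± 0.22, Psmg2 by 0.63 ± 0.12 and Psmd5 by 0.36 ± 0.13. Psmc3ip rose by 0.50 ± 0.16. Psmb11, the thymus-restricted beta subunit, was the member that fell, by 0.34 on the log2 scale, with overlapping arrays and a mean signal at percentile 39.4 of all genes. The other tissue-restricted gene, the testis subunit Psma8, was at percentile 21.1.

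The count of 20 called genes in young livers at 48 h moved with single arrays. Leaving out young sham 48 h replicate 1 gave 5, and leaving out its replicate 2 gave 7. Leaving out young PH 48 h replicate 1 gave 8. Repeating quantile normalization gave 9. Omitting the 2 arrays that stand apart gave 32, where 27.1% of all genes were called.

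At 24 and 38 h in young livers few members passed. At 24 h, 1 rose and none fell in the limma test, against 0.588% and 0.121% of all genes (0.709% in either direction), and 8 had an unadjusted p under 0.05. That gene was Psmg2, a chaperone that helps build the alpha ring, at 0.60 ± 0.12. The median over the members was 0.14 and over all genes -0.01. Psmb5 (0.35 ± 0.14, adjusted p = 0.248), Psmb6 (0.17 ± 0.09) and Psmb7 (0.31 ± 0.11) did not pass. Each PH array lay above each sham array for each of these genes, a separation whose share over all genes was not counted. Psmb8 differed by -0.31 ± 0.33, Psmb9 by 0.18 ± 0.50, Psmb10 by -0.43 ± 0.33 and Psme1 by 0.00 ± 0.19. No member was called when young PH 24 h replicate 1 or either young sham 24 h array was omitted. Omitting the 2 arrays that stand apart gave 4, with Psmb5, Psmd14 and Psme3 besides Psmg2, against 3.92% of all genes. At 38 h, 2 rose (Psmg2 by 0.55 ± 0.15, Psmd13 by 0.45 ± 0.14) and Psmb11 fell by 0.58 on the log2 scale, against 4.6% and 1.47% of all genes (6.06% in either direction). The rise of Psmd13 was -0.09 in its dimmest probe set, and its call was lost when any single young PH 38 h array was left out. The constitutive subunits were at 0.42 ± 0.17 for Psmb5, 0.28 ± 0.11 for Psmb6 and 0.24 ± 0.14 for Psmb7. The immunoproteasome subunits were at -0.23 ± 0.42 for Psmb8, 0.44 ± 0.63 for Psmb9 and 0.08 ± 0.42 for Psmb10, and Psme1 at 0.20 ± 0.25. The 38 h count was 1 when young PH 38 h replicate 3 was omitted, and 2 when replicate 1 or 2 was.

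In old livers at 24 h, 11 members rose and 1 fell, against 7.51% and 3.8% of all genes with 11.3% in either direction and 14.3% rising above percentile 75 of mean level. The median was 0.21 over the members and -0.01 over all genes. Of the 12 mitosis genes none passed in the limma test at this time, 0 had an unadjusted p under 0.05, and their median was -0.17. Psme3, which encodes the nuclear activator PA28 gamma, read 10.89, 9.96 and 9.89 after PH and 9.12 in both sham arrays, and rose by 1.13 ± 0.26 (adjusted p = 0.00805). The first of these is the array that stands apart, and the other PH arrays were also above sham. The second bright probe set of Psme3 was at 0.48 ± 0.14. Psmd8 rose by 0.98 ± 0.23 and Psmd14 by 0.71 ± 0.19, with PH arrays at 12.83, 12.35 and 12.075 against 11.725 and 11.70. Psmd10 rose by 0.84 ± 0.22. Psmb5 read 12.88, 12.83 and 12.43 against 12.14 and 12.12 and rose by 0.59 ± 0.14. Psmb6 (0.21 ± 0.09) and Psmb7 (0.13 ± 0.11) did not pass. Further rises were Psmc4 (0.56 ± 0.17), the chaperones Psmg4 (0.51 ± 0.16) and Psmg2 (0.40 ± 0.12), Psmb4 (0.45 ± 0.13), Psmd13 (0.39 ± 0.11, reversed in its dimmest probe set at -0.56 ± 0.15) and Psma6 (0.37 ± 0.12).

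When the 2 arrays that stand apart were omitted, 7 members rose at 24 h in old livers and none fell, against 10.9% of all genes called. They were Psme3 (0.81 ± 0.17), Psmd8 (0.87 ± 0.19), Psmd10 (0.76), Psmb5 (0.51 ± 0.11), Psmd14 (0.50 ± 0.12), Psmb4 (0.38) and Psmc4 (0.36). The count of 12 was also 1 without old PH 24 h replicate 1 alone, 6 without replicate 2, 19 without replicate 3, 0 without old sham 24 h replicate 1 and 2 without old sham 24 h replicate 2. With only the arrays of this comparison in the fit, no member was called.

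Psmb8 was the member that fell in old livers at 24 h, and Psmb9 and Psmb10 were lower without passing. Psmb8 read 8.81, 9.55 and 10.69 after PH against 11.03 and 10.74 in sham. Every PH array lay below the sham arrays, and it fell by 1.202 on the log2 scale, to 0.435 of the sham level (SE 0.33, adjusted p = 0.0236). Its second, dim probe set was at -0.60 ± 0.13. The sham mean of Psmb8 at 24 h, 10.89, was the highest mean of the old groups. Old sham at 38 and 48 h had means of 10.33 and 10.365, and old 0 h had 10.49. The PH mean at 24 h, 9.685, was below all of these, but PH replicate 3 lay above every old sham array at 38 and 48 h. The size of the fall thus depends on the sham time used. Psmb9 read 7.50, 9.01 and 9.845 against 10.15 and 10.04, a difference of -1.31 ± 0.50 that did not pass (adjusted p = 0.0867). Psmb10 read 9.39, 10.46 and 11.01 against 10.95 and 11.08, a difference of -0.73 ± 0.33 with overlapping arrays (adjusted p = 0.152). Psme1 differed by -0.27 ± 0.19. In all 4 genes the array that stands apart was the lowest of the PH arrays and replicate 3 the highest. Without the 2 arrays that stand apart Psmb8 was at -0.77 ± 0.27 (adjusted p = 0.0682), Psmb9 at -0.67 ± 0.32 and Psmb10 at -0.28 ± 0.235, and none passed. Leaving out one of the 5 arrays of the comparison moved Psmb8 between -1.70 and -0.77, and its call was kept in 1 of 5.

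Genes of the interferon response fell in the same comparison, and their part and that of macrophages in the immunoproteasome difference was not tested. In this comparison 3.8% of all genes fell, and without the 2 arrays that stand apart 10.9% were called, of which 7.04% of all genes were higher. Of 21 measured interferon response genes 11 fell and none rose (median -0.98), and without the 2 arrays 7 fell (median -0.72). The shift of the interferon list from young 0 h livers was -0.57, -0.31 and 0.15 in the 3 PH arrays and 0.85 and 0.63 in the sham arrays. Old sham at 38 and 48 h had mean shifts of -0.21 and -0.11, so the 24 h shams were high among the old shams. Of 12 MHC class I antigen processing genes 2 fell, among them B2m, the light chain of MHC class I, by 0.35 on the log2 scale, and without the 2 arrays 1 fell. Tap1, the peptide transporter gene between Psmb9 and Psmb8, differed by -0.49 ± 0.23 and did not pass. Of 12 macrophage and dendritic cell markers 1 fell (median -0.77; without the 2 arrays none fell, median -0.65), and their shift was -0.64, -0.24 and 0.11 after PH against 0.12 and 0.55 in sham. The leukocyte gene Ptprc (CD45) differed by -0.60 ± 0.51, Cd74 by -0.93 ± 0.45 and the T cell gene Cd3e by -0.04 ± 0.09. Of the macrophage markers, the Kupffer cell lectin Clec4f lay at percentile 83.1 of all genes by mean level.

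At 38 h in old livers 15 members had an unadjusted p under 0.05, a count with no like share of all genes beside it. After adjustment 1 member rose and none fell, against 2.3% and 2.49% of all genes (4.79% in either direction). The gene was Psmd14 (12.07, 11.77 and 12.77 against 11.51 and 11.34), at 0.78 ± 0.19. Every PH array was above sham, with the array that stands apart the highest. Without the 2 arrays Psmd14 still rose (0.49 ± 0.12), with Psmc3ip, and Psma4 fell. The immunoproteasome genes were lower without passing: Psmb8 at -0.79 ± 0.33 (9.89, 9.73 and 9.01 against 10.31 and 10.36), Psmb9 at -0.61 ± 0.50 and Psmb10 at -0.73 ± 0.33, with Psme1 at -0.55 ± 0.19. Psmb9 read 9.69, 9.63 and 7.75 after PH against 9.40 and 9.88, so that 1 array alone lay outside the sham range by more than 1 log2 unit. Omitting the 2 arrays, its difference was 0.02 ± 0.32, that of Psmb8 -0.52 ± 0.27, that of Psmb10 -0.38 ± 0.235 and that of Psme1 -0.32 ± 0.14. Psmb5 was at 0.39 ± 0.14, Psmb6 at 0.16 ± 0.09 and Psmb7 at 0.21 ± 0.11. The count was 0 when either old sham 38 h array was omitted, 3 when old PH 38 h replicate 1 was and 7 when replicate 2 was.

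At 48 h in old livers 7 members rose and none fell, against 8.46% and 6.56% of all genes, with 15% in either direction. Above percentile 75 of mean level 15.1% rose, so the members' share of rises lay near that of genes of like level. The members' median was 0.17 and that of all genes -0.07. The 7 were Psmg2 (0.69 ± 0.12), Psmd10 (0.69 ± 0.22), Psmd14 (0.65 ± 0.19), Psmd13 (0.63 ± 0.11, at -0.998 in its dimmest probe set), Psmc3 (0.42 ± 0.13), Psmc5 (0.36 ± 0.09) and Psma1 (0.31 ± 0.10). The calls of Psmd10 and Psma1 were lost when any single old PH 48 h array was left out. All 7 members were among the 19 that rose in young livers at 48 h, 100% of the old list and 36.8% of the young list. The like overlap over all genes was not counted, so this sharing is not shown to be particular to the members. Psmb5 (0.32 ± 0.14), Psmb6 (0.21 ± 0.09) and Psmb7 (0.29 ± 0.11) did not pass. Psmb8 was at 0.04 ± 0.33, Psmb9 at 0.29 ± 0.50, Psmb10 at -0.26 ± 0.33 and Psme1 at 0.04 ± 0.19. Omitting either old sham 48 h array gave 2, omitting old PH 48 h replicate 1 gave 3 and omitting its replicate 2 or 3 gave 4. Omitting the 2 arrays that stand apart gave 17, against 23.4% of all genes.

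**Figure D3:**
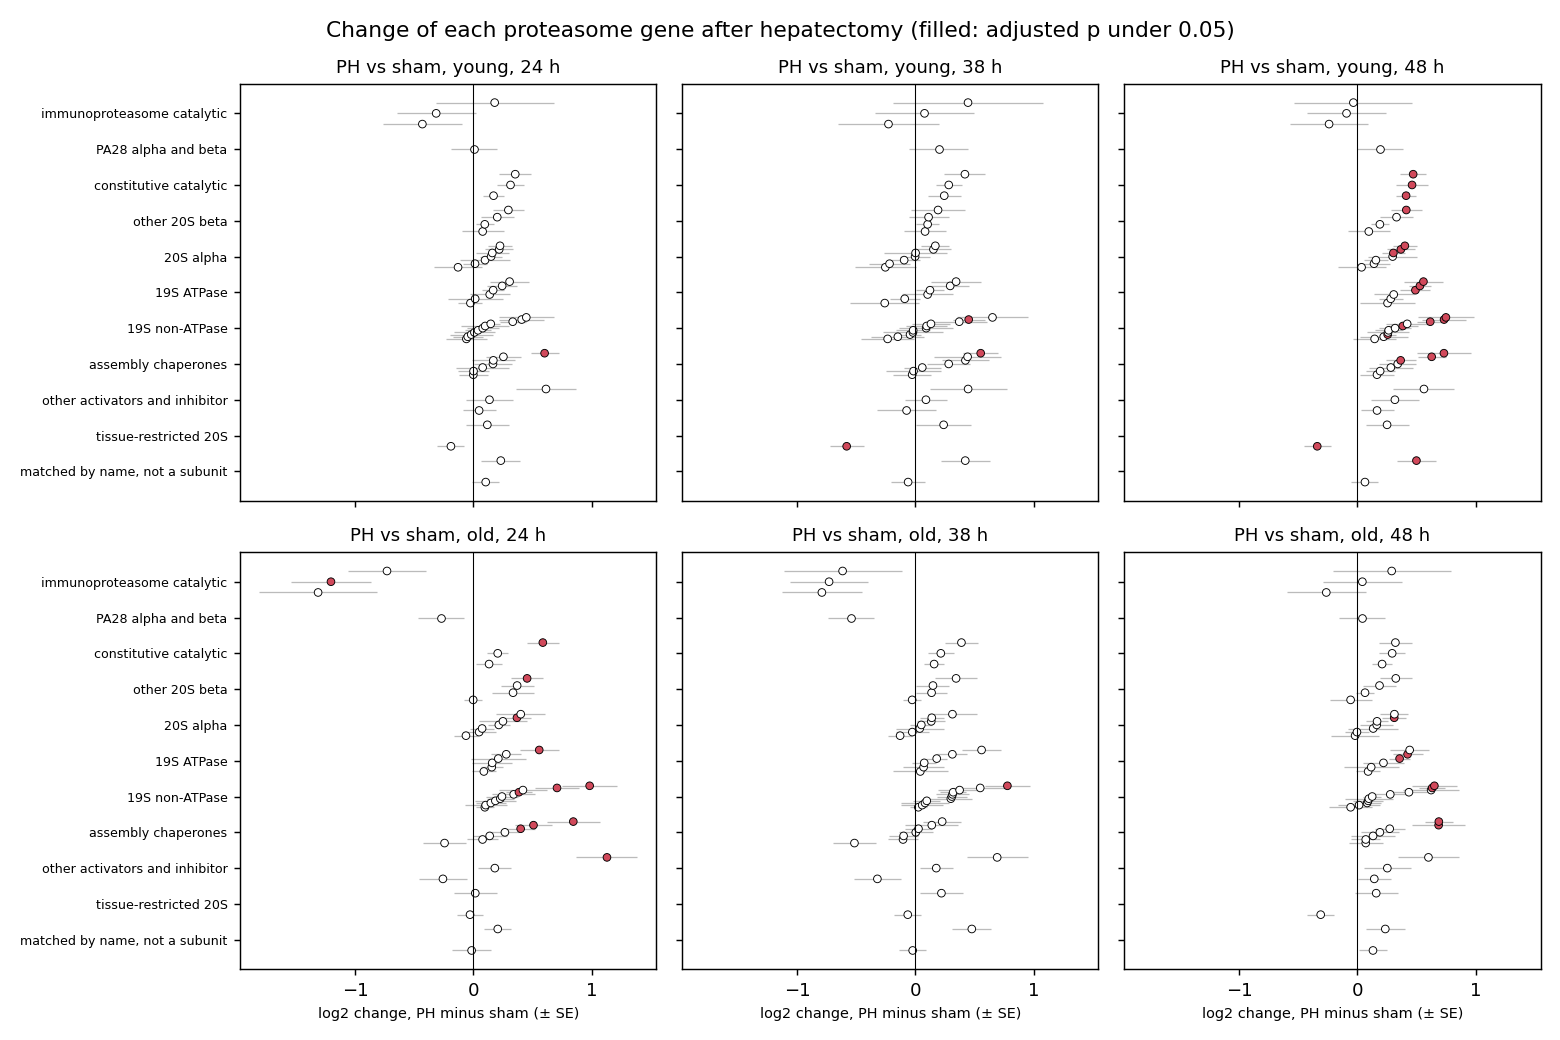
Log2 change of each proteasome gene after PH against sham (x axis, ± standard error) by role (y axis) in 6 comparisons; each point is 1 gene, filled where the adjusted p is under 0.05. Filled points lie to the right in the core, cap and chaperone rows, and the immunoproteasome row spreads to the left in old livers at 24 and 38 h.

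Over the 6 comparisons 21 of 49 members rose at least once, 2 fell at least once (Psmb8 and Psmb11) and 26 were never called. The like shares of all genes over the 6 comparisons were not counted, so these counts are not read against a background. Psmg2 rose in 5 comparisons, and Psmd13 and Psmd14 in 4. All 4 rises of Psmd13 are reversed in its dimmest probe set. Psmg2 was low in sham against 0 h and did not rise against 0 h in young livers after PH, as given below. The constitutive catalytic genes were higher after PH in 18 of 18 gene-by-comparison values, from 0.13 to 0.59, of which 4 passed. The immunoproteasome genes were higher in 5 of 18 values, from -1.31 to 0.44, of which 1 fell and none rose.

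PH was also set against the untreated livers of the same age. These comparisons share their PH arrays with those above and their 0 h arrays among themselves, so the values stand side by side. Psmb5, Psmb6 and Psmb7 rose in 17 of 18 values, from 0.27 to 0.70, and the exception was Psmb5 in old livers at 48 h (0.32 ± 0.12). In all 18 every PH array lay above every 0 h array, but the share of all genes separated in this way was not counted. The immunoproteasome genes rose in none and Psmb8 fell once, in old livers at 38 h, by 0.95 on the log2 scale (0.68 without the 2 arrays that stand apart, where it again fell). Its old 0 h arrays read 10.07, 10.95 and 10.46, and the highest, replicate 2, was also high in leukocyte genes, as given below. In this comparison Ptprc (-1.73 ± 0.46) and Cd74 (-1.88 ± 0.40) also fell and Cd3e (0.39 ± 0.08) rose. The part of these cells was not tested. In young livers at 24 h, 9 members rose and none fell, against 7.82% and 9.56% of all genes (17.4% in either direction). At 38 h, 9 rose and 3 fell, against 15.2% and 16.5% (31.7%), and at 48 h 18 rose and none fell, against 13.4% and 14.5% (27.9%). In old livers at 24 h, 21 rose and 1 fell, against 11.7% and 12.6% (24.3%). At 38 h, 14 rose and 4 fell, against 21.9% and 16.6% (38.4%), and at 48 h 8 rose and none fell, against 8.28% and 8.62% (16.9%). Leaving the 2 arrays out gave 16, 19 and 26 called in young livers, against 26.5%, 39.9% and 36.3% of all genes. In old livers it gave 19, 18 and 13, against 22.1%, 36.2% and 25.1%, so that the shares at 38 h at both ages and in old livers at 48 h lay near the background. In that fit all 3 constitutive catalytic genes still rose at 24 h and 2 of 3 at 38 h. The 18 called in old livers at 38 h were then of mixed direction, not mostly rises as with all arrays. Of 4 other beta genes 1 rose and none fell, and of 11 non-ATPase cap genes 3 rose and 2 fell. Of 6 ATPases 1 rose and 2 fell, and of the 7 alpha genes and the 7 chaperones none rose and 2 each fell.

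Psmb6 shows the course of a constitutive subunit. It read 11.31, 11.48 and 11.23 in young 0 h livers, between 11.43 and 11.80 in the 5 young sham arrays, and between 11.67 and 12.02 in the 9 young PH arrays. In old livers the same 3 ranges were 11.40 to 11.49, 11.55 to 11.70 and 11.66 to 12.003. The old 0 h arrays lie below all other old arrays, 1 young sham array lies within the young 0 h range, and the PH and sham ranges overlap at both ages. Psme1 rose against 0 h in young livers at 38 h, by 0.46 ± 0.17.

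To contrast the classes across the 14 groups, the mean shift of Psmb8, Psmb9 and Psmb10 from young 0 h livers was reduced by that of Psmb5, Psmb6 and Psmb7, as a description with no test. The 3 young 0 h arrays lay at 0.11, 0.02 and -0.13, and the 3 old 0 h arrays at 0.24, 1.26 and 0.53. Young sham arrays ran from -0.08 to 0.40 and old sham arrays from 0.28 to 0.82. After PH the young arrays read -0.35, -0.55 and -0.62 at 24 h, 0.10, 0.07 and -0.24 at 38 h, and -0.25, -0.11 and -0.18 at 48 h. All 9 young PH arrays lay below the sham arrays of their time, which at 38 h is a lone array. Single pairs did not all follow. At 38 h the shift of Psmb9 minus that of Psmb6 was -0.06, 0.03 and 0.03 against -0.17 in sham. For Psmb10 and Psmb7 it was 0.35, 0.16 and -0.455 against 0.18. The pair of Psmb9 and Psmb6 also overlapped sham at 24 h. The old PH arrays read -1.76, -0.65 and 0.45 at 24 h, 0.00, 0.04 and -1.65 at 38 h, and 0.20, -0.10 and 0.48 at 48 h. At 24 and 38 h every old PH array lay below the sham arrays of its time, and at 48 h the ranges overlapped. Taken alone, the pair of Psmb9 and Psmb6 overlapped sham at 38 h in old livers, and that of Psmb10 and Psmb7 at 24 h. The lowest values, -1.76 and -1.65, belong to the 2 arrays that stand apart.

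**Figure D4:**
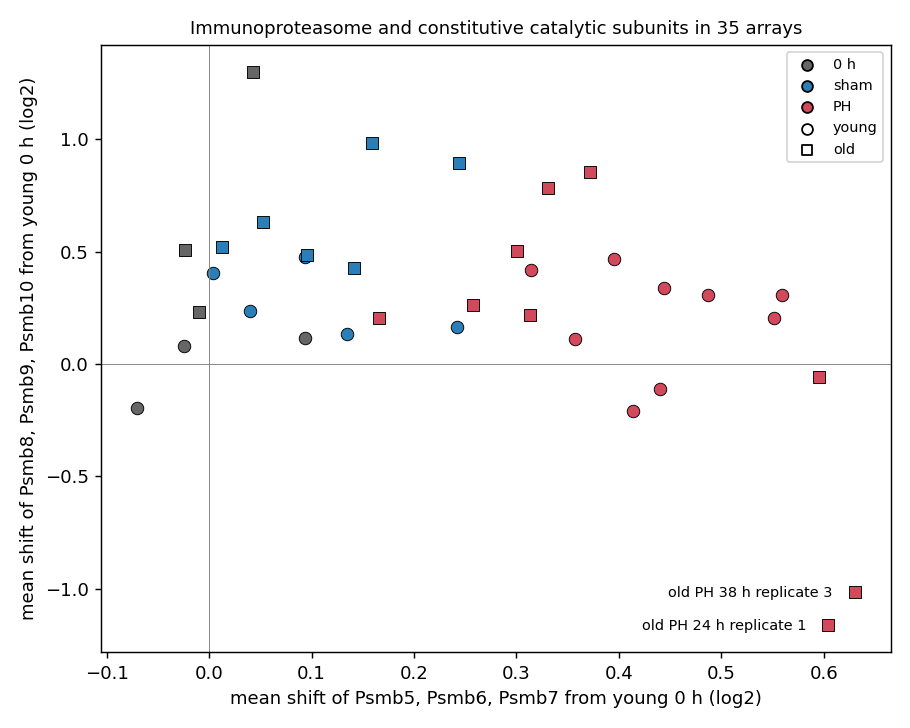
Mean log2 shift from young 0 h livers of Psmb5, Psmb6 and Psmb7 (x axis) against that of Psmb8, Psmb9 and Psmb10 (y axis), 1 point per array (circles young, squares old; grey 0 h, blue sham, red PH). All PH arrays lie to the right of all 0 h arrays and overlap the sham arrays, and the 2 labelled arrays are alone below -1 on the y axis.

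The pairs can be read one by one, as a description. In young PH livers at 24 h the shift of each immunoproteasome gene minus its counterpart was -0.40, -0.60 and -0.65 for Psmb8 and Psmb5, -0.41, -0.68 and -0.54 for Psmb9 and Psmb6, and -0.22, -0.39 and -0.68 for Psmb10 and Psmb7. All 9 values were negative. In the young sham arrays at 24 h the Psmb9 pair was negative too, at -0.63 and -0.48, so for this pair PH and sham overlapped. There the Psmb8 pair read 0.12 and 0.12 and the Psmb10 pair 0.28 and 0.35. In the 6 old sham arrays the Psmb8 pair ran from 0.68 to 1.38 and the Psmb10 pair from 0.52 to 0.69, while the Psmb9 pair ran from -0.35 to 0.43. In the 2 arrays that stand apart the Psmb9 pair was lowest, at -2.47 and -2.25, with the Psmb8 pair at -1.58 and -1.38 and the Psmb10 pair at -1.25 and -1.297. In these 2 arrays the means over the core and cap lists were higher than in any other array, though single genes such as Psmb6 were not, with mean shifts of 0.67 and 0.61 for the 14 constitutive core genes and 0.66 and 0.56 for the 17 cap genes.

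**Figure D5:**
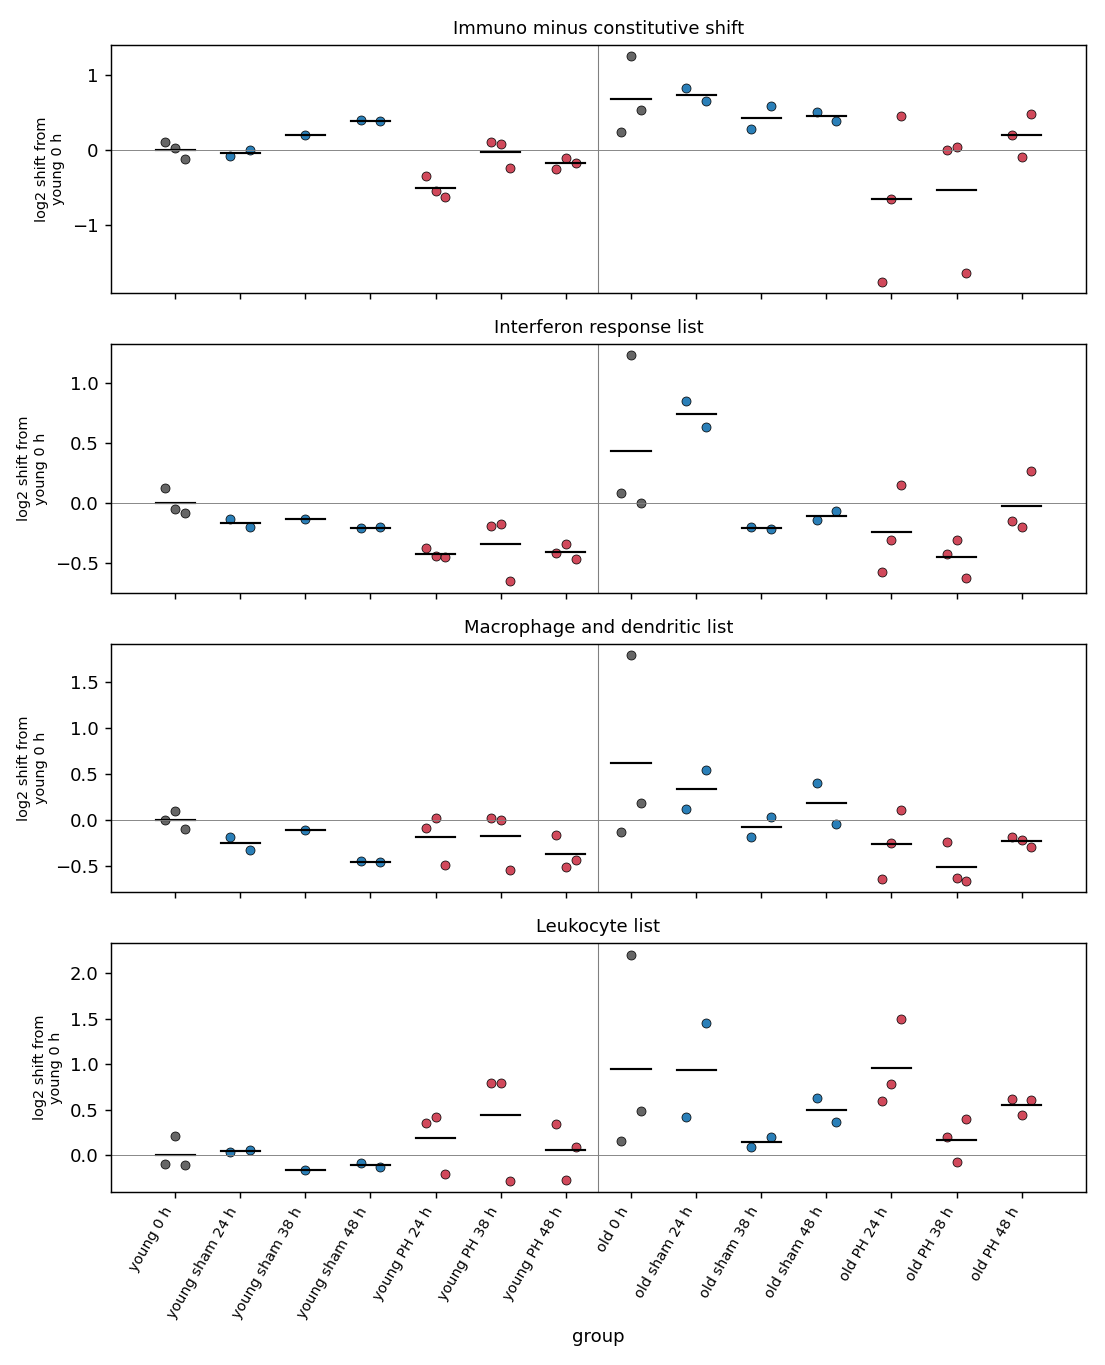
Log2 shift from young 0 h livers by array (points) and group (bars are means): immunoproteasome minus constitutive subunits, 21 interferon response genes, 12 macrophage and dendritic cell markers and 6 leukocyte genes; grey is 0 h, blue sham, red PH. Old 0 h replicate 2 is the highest point in each panel, and the interferon list is high in both old sham arrays at 24 h.

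Age was compared in untreated livers and over all conditions. In untreated livers no member passed in the limma test, against 0.236% of all genes (0.176% higher and 0.0605% lower in old livers), and 2 had an unadjusted p under 0.05. Psmb8 read 10.07, 10.95 and 10.46 in old livers against 9.64, 9.75 and 9.33 in young livers. Every old array was higher, with a difference of 0.92 ± 0.30 (adjusted p = 0.264) and a fold of 1.89. Psme1 (0.44 ± 0.17) and Psmb9 (0.56 ± 0.45) were also higher in every old array, and Psmb10 (0.56 ± 0.30) overlapped. Psmb5 (-0.04 ± 0.12), Psmb6 (0.12 ± 0.08) and Psmb7 (-0.06 ± 0.10) overlapped between ages. With the 2 arrays that stand apart omitted, Psmb8 rose with the same difference (adjusted p = 0.0498) against 0.682% of all genes. Those arrays are in neither group and enter only the pooled spread.

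Among the 3 old 0 h arrays, replicate 2 was the highest for Psmb8, Psmb9, Psmb10 and Psme1. The same array held the highest shift of the leukocyte list (2.203, against 0.16 and 0.48 in the other old 0 h arrays), of the macrophage list (1.79 against -0.13 and 0.19) and of the interferon list (1.23 against 0.08 and 0.00). Without it Psmb8 differed by 0.69 ± 0.32, Psme1 by 0.32 ± 0.19, Psmb10 by 0.26 ± 0.31 and Psmb9 by 0.16 ± 0.48. None of these passed. The part of these cells in the age difference was not tested.

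Over all conditions no member passed, against 2.88% of all genes (2.12% higher and 0.759% lower in old livers), and 6 had an unadjusted p under 0.05. Psmb8 was higher in old livers by 0.41 ± 0.13 (adjusted p = 0.0887), Psme1 by 0.15 ± 0.08, Psmb10 by 0.14 ± 0.13 and Psmb9 by 0.05 ± 0.19. Psmb5 (0.03 ± 0.05), Psmb6 (0.01 ± 0.03) and Psmb7 (-0.06 ± 0.04) lay near 0. Omitting the 2 arrays that stand apart, Psmb8 (0.51 ± 0.10, adjusted p = 0.00259) and Psme1 (0.22 ± 0.05) rose with age and Psma1 (-0.14) fell, against 5.84% of all genes. Omitting old PH 24 h replicate 1 alone gave 1 called member, and omitting old PH 24 h replicate 3 or old PH 38 h replicate 3 gave 2. Beside them, the antigen presentation gene Cd74 rose with age by 0.83 ± 0.17, 3 of 12 macrophage and dendritic cell markers rose and 1 fell, 2 of 6 leukocyte genes, 3 of 12 MHC class I genes and 2 of 21 interferon response genes rose, and B2m (0.03 ± 0.03) did not pass. When the 2 arrays were omitted, 4 of 6 leukocyte genes, 5 of 12 MHC class I genes and 5 of 21 interferon response genes rose.

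The PH response of old livers was compared with that of young livers at each time. No member passed at 24, 38 or 48 h in the limma test, against 0%, 0.0879% (0.0495% higher, 0.0385% lower) and 0% of all genes, and 2, 3 and 0 members had an unadjusted p under 0.05. At 24 h the difference was -0.89 ± 0.47 for Psmb8 and -1.49 ± 0.70 for Psmb9, and without the 2 arrays -0.45 ± 0.36 and -0.85 ± 0.43. For Psmb5 it was 0.23 ± 0.19 at 24 h, -0.03 ± 0.22 at 38 h and -0.14 ± 0.19 at 48 h. The differences in counts between ages given above are therefore not shown to be differences in response.

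Sham livers were compared with 0 h livers, as a mean over the 3 times, to ask what the operation alone changed. These comparisons share the sham arrays with PH against sham, so a gene that is low in sham is lower there and higher in the other. In young livers 4 members rose and 4 fell, against 16.5% and 17.1% of all genes (33.6% in either direction). In old livers 2 rose and 2 fell, against 15.7% and 12.6% (28.4% in either direction), so the members' shares lay below the background. The members' median was -0.02 in young and 0.01 in old livers. Psmg2 read 10.51, 10.45 and 10.54 in young 0 h livers, from 9.64 to 9.95 in the 5 young sham arrays and from 10.20 to 10.69 in the 9 young PH arrays. Sham stood apart from both, and Psmg2 fell by 0.69 on the log2 scale in young sham (adjusted p = 1.29e-05) and by 0.62 in old sham. Its second bright probe set was at -0.49 ± 0.12 and -0.50 ± 0.11, and its dimmest one at 0.18 ± 0.09 and 0.24 ± 0.09. Against 0 h, Psmg2 did not pass in young livers after PH and fell by 0.50 in old livers at 38 h.

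Psme4, which encodes the activator PA200, fell by 0.57 in young and by 0.42 in old sham, on the log2 scale. Its call in old sham was lost when any single old 0 h array was left out. Psmc3ip rose by 0.49 ± 0.13 and 0.40 ± 0.13. In young sham Psmb6 rose by 0.24 ± 0.07 and Psmb11 by 0.29 ± 0.09, both with overlapping arrays, and Psmd6 and Psme3ip1 fell, by 0.18 and 0.28. Psmb3, a structural beta subunit, rose by 0.91 ± 0.15 and 0.88 ± 0.14 in its chosen probe set, from 10.64, 11.04 and 10.58 in young 0 h to between 11.49 and 11.89 in young sham. Its other bright probe set was at 0.04 ± 0.14 and 0.02 ± 0.14. The 2 probe sets thus disagree, and the rise of Psmb3 rests on the choice of probe set. Psmb8 differed by 0.41 ± 0.27 in young and 0.04 ± 0.26 in old livers, Psmb9 by 0.01 ± 0.41 and -0.21 ± 0.39, Psmb10 by 0.40 ± 0.27 and 0.10 ± 0.26, and Psme1 by 0.22 ± 0.16 and 0.08 ± 0.15. Psmb5 was at -0.02 ± 0.11 and 0.06 ± 0.11, and Psmb7 at 0.06 ± 0.09 and 0.12 ± 0.09. Psmb6 in old livers was at 0.16 ± 0.07. The old count of 4 was 2 without old 0 h replicate 1 or 2, and the young count of 8 was 4 without young 0 h replicate 1 or 3. Without the 2 arrays that stand apart the counts were 9 in old and 13 in young livers, against 36.1% and 41.4% of all genes.

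Genes that work with the proteasome were counted beside it. After PH against sham, 4.6% of all genes rose in young livers at 38 h, 11.1% in young livers at 48 h, 7.51% in old livers at 24 h and 8.46% in old livers at 48 h. Of 12 measured partners and regulators 1 rose in young livers at 38 h, 2 in young livers at 48 h, and 1 in old livers at 24 h and at 48 h, with none falling. Pomp, the chaperone that guides maturation of the core, rose in sham against 0 h, by 0.33 ± 0.08 in young and 0.25 ± 0.08 in old livers. It did not pass in any PH against sham comparison (0.24 ± 0.10 in young livers at 48 h). Nfe2l1, the transcription factor known to drive proteasome genes when proteasome activity is short, did not pass in any PH against sham comparison and was at -0.21 ± 0.15 in young livers at 48 h. Of 8 genes for ubiquitin supply and delivery 2 rose and 1 fell in young livers at 48 h, and 2 rose and none fell in young livers at 38 h and in old livers at 24 h and at 48 h. Of 10 NRF2 target genes 3 rose and 1 fell in young livers at 48 h, 2 rose and none fell in old livers at 24 h, and 2 rose and 1 fell in old livers at 48 h. When the 2 arrays that stand apart were omitted, 4 partners and 4 ubiquitin genes rose in young livers at 48 h, against 15.7% of all genes. No partner rose in old livers at 24 h and 3 did in old livers at 48 h, against 7.04% and 13.1%.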

How the data were processed

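Liver RNA was hybridised to Affymetrix moe430_2 arrays, 1 sample per array. The authors deposited log2 values, obtained with RMA per the submitters' processing notes. That method subtracts background, forces one signal distribution on all arrays and combines the probes of each set, so it can compress changes and hide a global shift. Its version is not given in the sources used here, and arrays have no read depth. Of 45101 probe sets, 64 are controls and were left out, and 34945 name 1 symbol.

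Group means of 18193 genes on 35 arrays were fitted with limma 3.58.1 in R 4.3.3 (21 residual and 3.29 prior degrees of freedom). There were 13 comparisons, each adjusted over all genes, and 6 more with 0 h as control. The code was tested on simulated data. Members and lists were chosen with earlier results of these data known. Named throughout are Psmb5 to Psmb10 and Psme1; beyond these the rule named up to 3 called genes per role and comparison with the largest changes, a fixed set of partners and markers, and the 10 genes most like the immunoproteasome mean. Shifts are means of log2 levels relative to the young 0 h arrays. Alternatives changed the probe set, filter, scaling, variance prior, weights, arrays fitted, control, a block for the replicate number and each array in turn. The 2 arrays that stand apart and the probe-set unit were added after seeing the data. The lone young 38 h sham array stayed in throughout. Figures used matplotlib 3.10.9 in Python 3.11.15.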

Additional observations from a re-analysis of the deposited data

How the results depend on the processing

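Of 56 called changes, 55 kept their call with array weights, 55 with arrays centred on their medians, 52 with a trended robust prior and 51 without the 2 arrays that stand apart. With quantile normalization repeated 32 kept it, with the mean of all probe sets 39 and with the most variable probe set 45. The 53 changes left after dropping dim genes all kept it. Psmd13 reversed: with its most variable probe set it was at -0.56 (old 24 h), -0.998 (old 48 h), -0.0877 (young 38 h) and -1.10 (young 48 h), and with the mean of its probe sets at -0.0654 (old 48 h) and -0.0704 (young 48 h). Counts below are of called members in the order young 24, 38 and 48 h, old 24, 38 and 48 h of PH against sham (1, 3, 20, 12, 1 and 7) unless named.

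With array weights young counts were 9, 6 and 33, old 38 and 48 h 3 and 18, sham young 16, and age untreated 1, over all conditions 3 and in the response at 24 h 1. With quantile normalization repeated young 38 and 48 h gave 1 and 9, old 38 and 48 h 3 and 3, all conditions 1 and sham old 9 (8 rose and 1 fell against 2 and 2). With only the arrays compared young 24 and 38 h gave 4 and 0, old 0, 0 and 15 and sham old 7. With 0 h as control young 24 and 38 h gave 9 and 12 and old 24 and 38 h 22 and 18. With pooled shams they gave 7 and 9, and 26 and 11. With the mean of probe sets young 24 h gave 0 and old 24 and 38 h 7 and 2. With the most variable probe set young 24 and 38 h gave 2 and 5, old 38 h 3 and sham old 8. Testing probe sets gave 2 and 5 for young 24 and 38 h, 3 and 15 for old 38 and 48 h and 21 for sham at each age. Centred arrays gave 12 at old 48 h, and dropping dim genes 2 at old 38 h. Without the 2 arrays that stand apart the counts were 4 (young 24 h), 32 (young 48 h), 7, 3 and 17 (old), 13 and 9 (sham), 1 (age untreated) and 3 (all conditions). Leaving out 1 array in turn gave 0 to 2 for age, all conditions, 0 to 19 for old, 24 h, 0 to 7 for old, 38 h, 2 to 4 for old, 48 h, 0 to 1 for young, 24 h, 1 to 2 for young, 38 h, 5 to 17 for young, 48 h, 2 to 4 for sham old and 4 to 9 for sham young. The cause of these differences was not tested, beyond fewer arrays where arrays were left out.

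Replicate numbers showed no general pairing of the samples: 25 of 84 same-numbered pairs correlated above 0.1, and the median was 0.02 against -0.01 for other pairs. The same-numbered values ran from -0.76 to 0.45, and other pairs above 0.1 were not counted. Pairing in part of the groups is thus not shown to be absent. With the replicate number as a block 51 of 56 calls were kept, and the 5 lost had adjusted p up to 0.058. The largest shift of the median of all genes was 0.07. Arrays give no depth; the small groups, with 1 to 3 arrays, limit the precision, and a change that did not pass is not shown to be absent.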

Other observations

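Across the 35 arrays the genes whose level went most closely with the mean of Psmb8, Psmb9 and Psmb10 were, by Pearson's r, Dpysl2 (0.884), Tapbp (0.874), Tap2 (0.85), Ifi35 (0.849), Psme1 (0.847), Asah1 (0.844), Cd5l (0.836), Selenow (0.832), AW112010 (0.826) and Parp14 (0.821). Tapbp and Tap2 act in loading peptides on MHC class I, and Cd5l is a macrophage marker. These are descriptions over arrays that share groups, and the order rests on the 2 arrays that stand apart. Without those arrays, over 33 arrays, none of the 10 genes stayed among the 10 highest, and their ranks were 13, 11, 47, 57, 25, 29, 145, 125, 59 and 34 in the order above. There r was 0.76 for Dpysl2, 0.768 for Tapbp, 0.736 for Psme1, 0.696 for Tap2 and 0.611 for Cd5l.

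The constitutive counterparts did not go with them in the same way. Over the 35 arrays r with that mean was -0.54 for Psmb5, -0.26 for Psmb6 and -0.36 for Psmb7, and without the 2 arrays -0.23, -0.08 and -0.18. Psmd3 had the lowest value of all members, at -0.722, and was at -0.23 without the arrays.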
